A study of Homo sapiens with 2 samples.

Results

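The miRNAs described here are the 70 human miRNAs with a number in the 2000s to 5000s that were detected on at least 1 of 2 microarrays of HepG2 cells, out of 921 such miRNAs on the array (7.60%). They were chosen by their name and by the detection flag of the scanner software, with miR-3653, miR-3656 and miR-4485 left out. HepG2 is a human liver cancer cell line. The cells received an adenoviral vector, either a control (Ad-NC) or one named for the ultraconserved long non-coding RNA uc.372 (Ad-uc.372), for 48 h before total RNA was taken. The title of the series names overexpression of uc.372, the labels of the samples name only the vector, and every direction below is Ad-uc.372 against Ad-NC as labelled. Each condition had 1 array (Agilent human miRNA V21.0, Cy3 label, with slide and scan in common), so that no difference has a replicate check, no test was possible, and precision is limited by the number of arrays.

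miRNAs are short RNAs cut from hairpin precursors, and each loads into an Argonaute protein and binds messenger RNAs chiefly through its seed, the bases near its 5′ end. Names carry a number that roughly follows the order in which miRNAs entered the registry, and the suffixes 5p and 3p name the arm of the hairpin. Many entries with high numbers came from deep sequencing, are poorly conserved between species and have no established function, whereas many low-numbered entries are old, conserved families such as miR-26. The prefix hsa is left out of the names.

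The detection flag, which chose the miRNAs, was set on both arrays for 49 of the 70, on the Ad-NC array alone for 9 and on the Ad-uc.372 array alone for 12. Of the 893 miRNAs numbered under 1000, used here as the background, 178 were detected (19.9%). Of these, 154 were detected on both arrays, 7 with Ad-NC alone and 17 with Ad-uc.372 alone. Over all 336 detected miRNAs the counts were 279, 17 and 40. Detection did not fall evenly over the names. Of the 452 entries without an arm in the name 46 were detected (10.2%), against 13 of 236 3p entries (5.51%) and 11 of 233 5p entries (4.72%). By number, 9.16% of the entries in the 4000s were detected, 6.52% of those in the 3000s and 3.45% of those in the 5000s, and 2 of 27 in the 2000s. The threshold lies at very dim signals. Just inside it, miR-4313 had a total signal of 1.56 and miR-4728-5p of 1.64 with Ad-uc.372, and both were listed at 0.1, the value for undetected, with Ad-NC. Just outside it, miR-4499 had summed probe signals of 2.09 and 2.77 and miR-4270 of 2.35 and 2.69 (Ad-NC and Ad-uc.372), and both were listed at 0.1 on both arrays. On that summed scale miR-4313 was at 3.33 and 3.08 and miR-4728-5p at 1.69 and 2.02, the latter below both miRNAs outside the threshold, so that the flag does not follow the summed signal.

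Mature sequences were available from RefSeq (GRCh38.p14) for 58 of the 70 miRNAs (82.9%). The following set shows those on which the values below turn: miR-4668-5p, which the study followed, the lowest and the highest differences, the brightest signals and the hairpin seen on both arms. Sequences run 5′ to 3′, and capitals mark the seed, bases 2 to 8.
miR-4668-5p: aGGGAAAAaaaaaaggauuuguc
miR-4306: uGGAGAGAaaggcagua
miR-4507: cUGGGUUGggcugggcuggg
miR-4505: aGGCUGGGcugggacgga
miR-4687-3p: uGGCUGUUggagggggcaggc
miR-4516: gGGAGAAGggucggggc
miR-4530: cCCAGCAGgacgggagcg
miR-4465: cUCAAGUAgucugaccagggga
miR-4665-3p: cUCGGCCGcggcgcguagcccccgcc
miR-5100: uUCAGAUCccagcggugccucu
miR-4284: gGGCUCACaucaccccau
miR-4455: aGGGUGUGuguguuuuu
miR-4701-5p: uUGGCCACcacaccuaccccuu
miR-4701-3p: aUGGGUGAuggguguggugu
These places are on GRCh38.p14, with overlapping genes taken without regard to strand or exon. miR-4668-5p lies at chr9:111932100-111932122 (+) in UGCG, which encodes the enzyme that makes glucosylceramide. miR-4306 lies at chr13:99643123-99643139 (+) in CLYBL, which encodes a mitochondrial enzyme. miR-4516 lies at chr16:2133120-2133136 (+) in PKD1, the gene mutated in most polycystic kidney disease. miR-4465 lies at chr6:140683855-140683876 (+) in the non-coding LOC105378027, and miR-4530 at chr19:39409629-39409646 (-) outside any other annotated gene. Of the 58 miRNAs, 38 lay in a protein-coding gene, 5 in a long non-coding gene only, 2 in a gene of another kind and 13 in none. A single one, miR-3651, overlapped a small nucleolar RNA gene, SNORA84, inside IARS1.

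Most of these sequences were rich in G. The median G+C share of the 58 was 68.2% (range 30.4 to 94.7), against 50% for the 765 undetected miRNAs numbered in the 2000s to 5000s with a sequence, 47.8% for the 157 detected and 47.4% for the 627 undetected miRNAs numbered under 1000. The difference lay in G rather than C. The median share of G was 46.4% against 27.8%, 26.1% and 22.7% in the same order, and that of C was 22.2% against 21.7% in each of the other sets. The triplet GGG, searched on the mature strand, occurred in 39 of the 58 (67.2%), against 30.7%, 30.6% and 25.7% in the other sets. A G+C share over 70% was found in 27 of the 58 (46.6%) and in 7.97%, 5.73% and 1.44% of the other sets. At the other end were 3 miRNAs under 50%, miR-4668-5p at 30.4%, miR-4455 at 41.2% and miR-4306 at 47.1%. All 3 are among those with the largest differences or bounds described below. The median length was 21 bases, against 22 in each of the other sets. The other 88 detected miRNAs, neither among the 70 nor numbered under 1000, were also rich in G. The 74 of them with a sequence had a median G+C share of 66.7% and a median share of G of 50%. GGG occurred in 55.4% of these, so that a G-rich sequence is not particular to the 70. All these shares describe the sequences, and whether the composition of a probe bears on its detection was not tested.

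**Figure D1:**
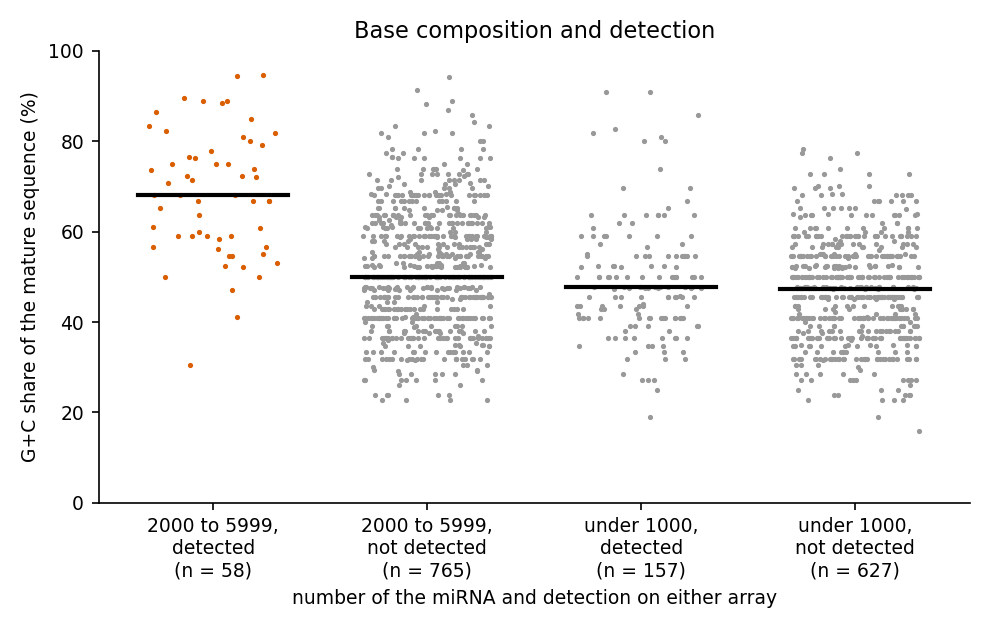
G+C share (%) of the mature RefSeq sequence (vertical axis) of miRNAs numbered in the 2000s to 5000s or under 1000, by detection on either array. Each point is a miRNA and each bar a median: the detected miRNAs numbered in the 2000s to 5000s have a median of 68.2%, and the other 3 sets lie between 47.4% and 50%. The 88 detected miRNAs outside these sets, with a median of 66.7%, are not shown.

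For the comparison of the arrays, signals of single spots were used. The software flags spots as well above background, and the lowest signal carrying that flag was 21.1 on the Ad-NC array and 17.3 on the Ad-uc.372 array. Dimmer spots were raised to this limit, and a probe was taken as measured when at least 50% of its spots were well above background. Log2 signals were averaged over a probe's 6 to 10 spots. Each array was then scaled by subtracting the 75th percentile of the probes measured on both arrays, which stood at signals of 304.6 (Ad-NC) and 356.5 (Ad-uc.372). Differences below are on this scaled log2 scale, signals are before scaling, and a signal of a probe gives its brightness and not the abundance of the miRNA. Errors are SDs over the repeat spots of a probe, a technical spread, and the error of a difference combines those of the arrays. Of the 142 probes for the 70 miRNAs, 80 were measured with Ad-NC and 81 with Ad-uc.372. By this stricter rule 43 of the 70 miRNAs were measured on both arrays, 4 with Ad-NC only, 4 with Ad-uc.372 only and 19 on neither, and among miRNAs numbered under 1000 these counts were 125, 3, 19 and 31. No spot was saturated, and outlier spots (25 and 51 of 1400) were left out. Of 6 miRNAs listed as hepatic markers, miR-148a-3p, miR-192-5p and miR-194-5p were measured on both arrays, miR-122-5p, miR-483-3p and miR-885-5p were not detected, and none of 7 markers of blood, muscle, neurons, endothelium or fibroblasts was detected.

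The 43 miRNAs measured on both arrays covered the same span of brightness as the low-numbered ones. Their median signal was 75.6 with Ad-NC and 76.2 with Ad-uc.372, and that of the 125 miRNAs numbered under 1000 was 87.4 and 85.8. The range with Ad-NC was 23.2 to 3088 and for the low-numbered miRNAs 22.4 to 3816. Between the arrays these 43 differed little. The median log2 difference was -0.095, with quartiles of -0.25 and 0.034, and 29 of the 43 were lower and 14 higher with Ad-uc.372. For miRNAs numbered under 1000 the median was -0.24, with 94 lower and 31 higher, and over all 229 miRNAs measured on both arrays it was -0.17, with 73.8% lower. The share on each side of 0 depends on the scaling, and the median of the 43 became 0.13 without scaling and 0.39 when all probes entered the 75th percentile. The other 61 of the 229, neither among the 43 nor numbered under 1000, had a median of -0.13, nearer to that of the 43. The median of the 43 minus that of the low-numbered miRNAs was 0.14. In 4 alternatives that shift all miRNAs alike this gap cannot move, and over the other 12 it lay between 0.065 and 0.20. The combined spot SD of a single miRNA (the root of the added spot variances of the arrays) had a median of 0.21 for the 43 and 0.27 for the low-numbered miRNAs. For the other 61 it was 0.23. The difference was no larger than its own combined spot SD for 29 of the 43 (67.4%), against 69 of 125 (55.2%). These counts also depend on where the scaling puts 0, and were taken under the main scaling only.

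**Figure D2:**
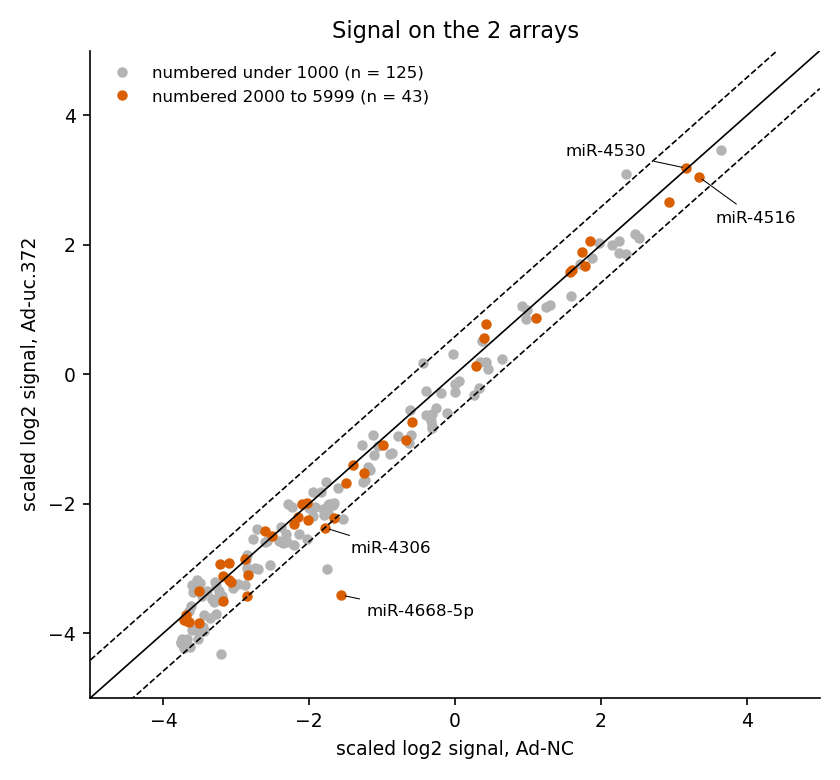
Scaled log2 signal with Ad-NC (horizontal axis) and Ad-uc.372 (vertical axis) of miRNAs measured on both arrays, numbered in the 2000s to 5000s (43) or under 1000 (125). The solid line is equality and the dashed lines are 1.5-fold. The 43 lie along the line over the span of the low-numbered miRNAs, with miR-4668-5p below it by 1.85.

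At 1.5-fold, the size used in the study's methods, 2 of the 43 stood apart (4.65%), both lower with Ad-uc.372, where the share over all 229 miRNAs measured on both arrays was 3.93 percent (2.62 percent lower, 1.31 percent higher) and that of the low-numbered miRNAs 4%. They were miR-4668-5p and miR-4306. The share among the 43 is thus close to the background. A view that sets no size asks whether the scaled spots of every measured probe of a miRNA stay clear of each other on the arrays. This held for 7 of the 43 (16.3%), all lower with Ad-uc.372, against 17 of 125 low-numbered miRNAs (13.6%) and 13.5 percent over all 229 (12.7 percent lower, 0.873 percent higher). The 7 were miR-4668-5p, miR-4306, miR-4505, miR-4687-3p, miR-4516, miR-3960 and miR-4497, and this share is also close to the background. It turns on the scaling. Without scaling, miR-4668-5p alone stayed apart on the lower side, and miR-4465, miR-4281, miR-4459 and miR-4530 stayed apart on the higher side, 1 against 4, where all 229 miRNAs gave 7 against 8. With all probes in the 75th percentile it was 1 against 16, and 2 against 47 over all 229.

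miR-4668-5p had the lowest difference of all 229 miRNAs and rests on 1 of its 2 probes. The 10 spots of that probe had signals of 91.9 to 117 with Ad-NC (103 ± 8.81, SD) and 22.1 to 47.6 with Ad-uc.372 (34.4 ± 8.30). The spots do not overlap, and the log2 difference was -1.85, or 3.60-fold lower, with a combined spot SD of 0.38. The other probe was at 1.46 with Ad-NC and 0.741 with Ad-uc.372, below background on both arrays, and the 3p arm of this hairpin was below background too. Over 14 alternatives the difference lay between -1.91 and -0.93, past 1.5-fold in each. Without miR-4668-5p the SD of the differences over the remaining miRNAs was 0.22 in place of 0.35, and their median was -0.090.

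miR-4306 was measured by both of its probes. The 10 spots of the first had signals of 70 to 82.4 with Ad-NC (75.5 ± 4.63) and 41.0 to 66.6 with Ad-uc.372 (57.5 ± 8.94), and those of the second 97.1 to 111 (105 ± 5.10) and 73.5 to 97.4 (83.6 ± 7.24). The spots of the first probe stay apart as scanned, and those of the second meet at 97 and stay apart only after scaling. The log2 differences of the probes were -0.64 and -0.55, and their mean of -0.59 ± 0.20 lies just past 1.5-fold. It stayed past in 4 of 14 alternatives, which ranged from -0.68 to -0.11.

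miR-4507 and miR-4505 came next, both just under 1.5-fold. miR-4507 had probe signals of 39.3 ± 7.74 and 46.8 ± 6.07 with Ad-NC against 28.6 ± 2.94 and 38.2 ± 2.09 with Ad-uc.372, and a log2 difference of -0.58 ± 0.29. miR-4505 had a signal of 96.4 ± 10.7 against 76.7 ± 9.31 on 1 of its 2 probes, and a difference of -0.56 ± 0.24. On the first probe of miR-4507 a single Ad-NC spot, with a signal of 22.8, lay among the Ad-uc.372 spots after scaling, and the other Ad-NC spots were brighter than all of them. The 2 miRNAs also share a run of bases, printed among the shared stretches.

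After these 4, the differences were no larger than 0.33 in size on the lower side. miR-4687-3p, in the calcium sensor gene STIM1, had probe signals of 138 ± 4.47 and 262 ± 12.1 with Ad-NC against 130 ± 10.5 and 242 ± 14.5 with Ad-uc.372, and a difference of -0.33 ± 0.12. miR-4433a-5p had a difference of -0.33 and miR-4484 of -0.32, each on 1 of 2 probes and at signals between 25.2 and 33.7. These dim signals lie close to the detection limit. miR-4516, which had the highest Ad-NC level of the 43 by mean log2 signal over probes, was read by 3 probes, at 2406 ± 120, 3702 ± 78.7 and 3311 ± 78.5 with Ad-NC and at 2306 ± 125, 3522 ± 277 and 3199 ± 266 with Ad-uc.372. Its probes gave differences of -0.29, -0.30 and -0.28, and as scanned the means of the arrays differed by less than 1 Ad-uc.372 spot SD on each probe, before the scaling added its shift of 0.23. It ranged from -0.39 to 0.19 over the alternatives. miR-3960 had signals of 2339 ± 48.9 and 2334 ± 40.5 against 2286 ± 159 and 2225 ± 136 and a difference of -0.28. miR-4497, in the ion channel gene TRPV4, had a signal of 657 ± 17.7 against 651 ± 47.0 on 1 of its 2 probes and a difference of -0.24. Its other probe, at 12.95 with Ad-NC and 17.7 with Ad-uc.372, was measured with Ad-uc.372 only.

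On the higher side no miRNA reached 1.5-fold, and the largest difference was that of miR-4465. Its first probe had signals of 346 to 422 with Ad-NC (388 ± 24.6) and 492 to 719 with Ad-uc.372 (575 ± 85.6), and its second 411 to 442 (432 ± 9.97) and 554 to 710 (654 ± 56.4). As scanned the spots of both probes stay apart, and after scaling the dimmest Ad-uc.372 spot of the first probe meets the brightest Ad-NC spot, at 0.47 on the scaled log2 scale. The differences of the probes were 0.33 and 0.37, with a mean of 0.35 ± 0.19. Over the alternatives the value lay between 0.26 and 0.83 and passed 1.5-fold in 1 of 14, the 75th percentile over all probes. miR-4665-3p followed with probe signals of 35.3 ± 6.65 and 31.0 ± 3.88 against 50.7 ± 6.87 and 43.6 ± 5.59 and a difference of 0.29 ± 0.29. The next were miR-5100 at 0.21, miR-3652 and miR-3162-5p at 0.19 each, miR-4763-3p at 0.17, miR-4284 at 0.16 and miR-4286 at 0.15. Of these 8, miR-4465 alone had a difference larger than its combined spot SD.

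miR-4530, second to miR-4516 by the same mean over probes, stayed level. By the brightest probe or the total signal miR-5100 lies above both. The probes of miR-4530 were at 2759 ± 147 and 2737 ± 97.9 with Ad-NC and at 3272 ± 109 and 3217 ± 110 with Ad-uc.372, and after scaling their differences were 0.020 and 0.0059, with a combined spot SD of 0.082. miR-4530 and miR-4516 thus went apart by 0.30 on the log2 scale. A scaling that moves all miRNAs by the same amount leaves this gap as it is, and quantile normalization, which does not, gave 0.15, the lowest of 14 alternatives. miR-4530 remained between -0.088 and 0.50 over the alternatives.

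**Figure D3:**
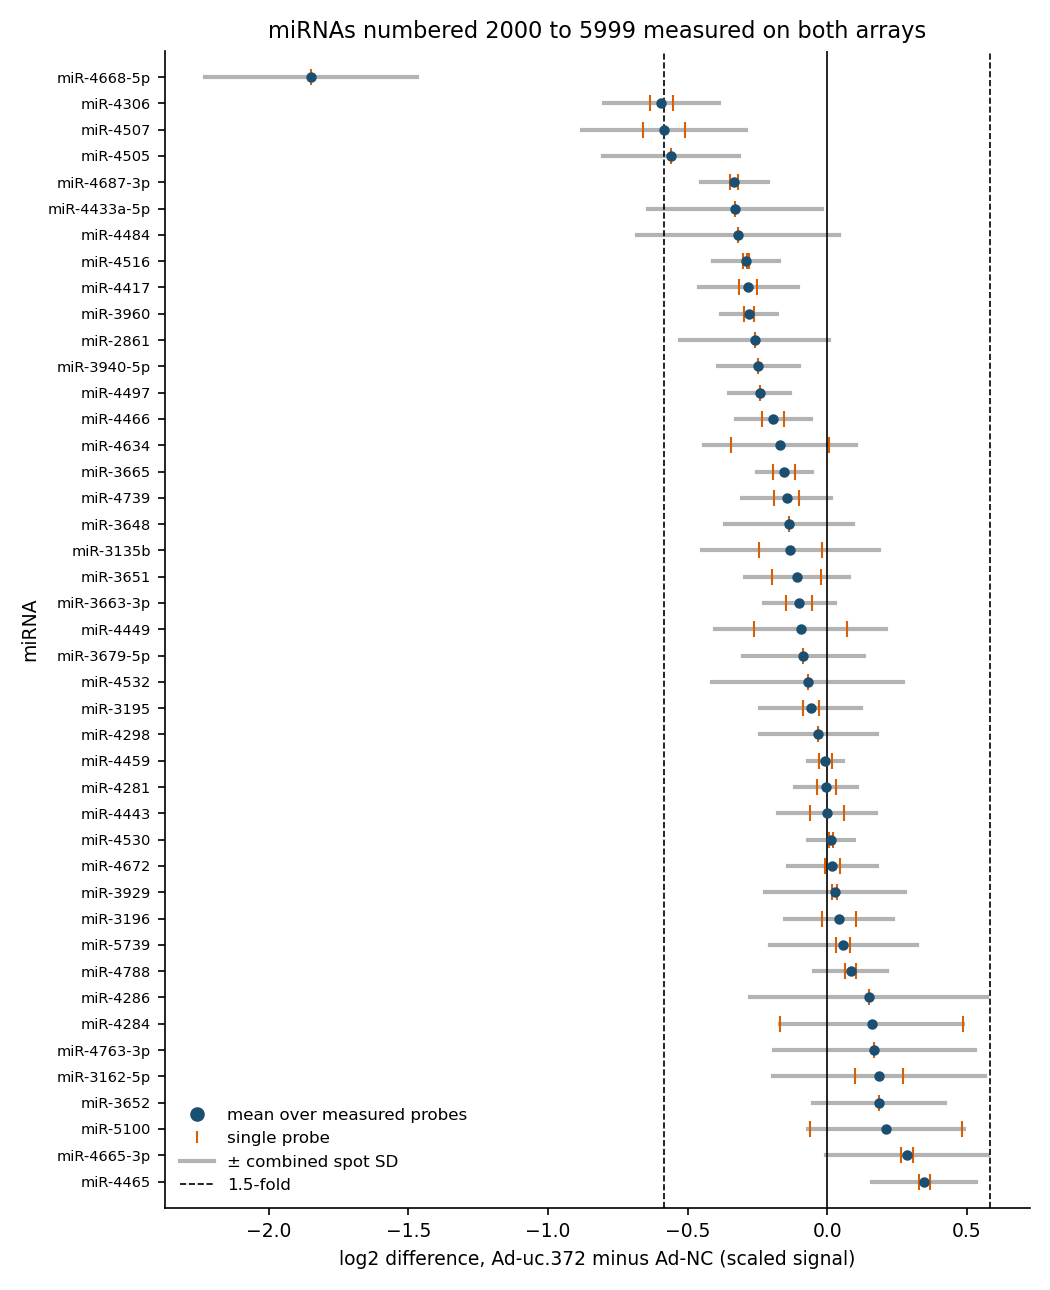
Log2 difference of the scaled signal, Ad-uc.372 minus Ad-NC, for the 43 miRNAs numbered in the 2000s to 5000s measured on both arrays, in order. Points are means over measured probes, ticks single probes, grey bars the combined spot SD and dashed lines 1.5-fold. The values run from -1.85 (miR-4668-5p) to 0.35 (miR-4465), and miR-4668-5p and miR-4306 lie past the dashed line.

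Probes of different sequence against the same miRNA show how far a value rests on the probe. Of the 43 miRNAs, 14 were measured by a single probe (32.6%, against 37.6% of the low-numbered miRNAs) and 29 by several. In 20 of these 29 (69.0%) all probes had a difference of the same sign, 13 lower and 7 higher, against 66 of 78 low-numbered miRNAs (84.6%). The count for the 29 depends on where 0 lies, and was 25 without scaling and 29 with the 75th percentile over all probes. The 9 miRNAs with opposite signs all had a mean of at most 0.21 in size. By distance, the probes lay closer together than those of the low-numbered miRNAs, with a median gap of 0.078 against 0.14 and a largest gap of 0.65 against 1.01. The 50 miRNAs with several measured probes outside both sets had a median gap of 0.096 and a largest of 1.03.

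The gap passed 0.5 for 2 of the 29, miR-4284 and miR-5100, and for 4 of the 78. The probes of miR-4284, which lies in the syntaxin gene STX1A, had signals of 62.8 ± 6.58 and 2594 ± 405 with Ad-NC and of 65.4 ± 6.37 and 4310 ± 993 with Ad-uc.372, so that the dim probe gave -0.17 and the bright one 0.49. In miR-5100 the order was the reverse. Its dim probe, at 118 ± 9.33 and 198 ± 46.0, gave 0.48 and its bright one, at 10236 ± 349 and 11521 ± 1115, gave -0.062. The mean over the probes, 0.16 and 0.21, describes neither probe of these 2 miRNAs.

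**Figure D4:**
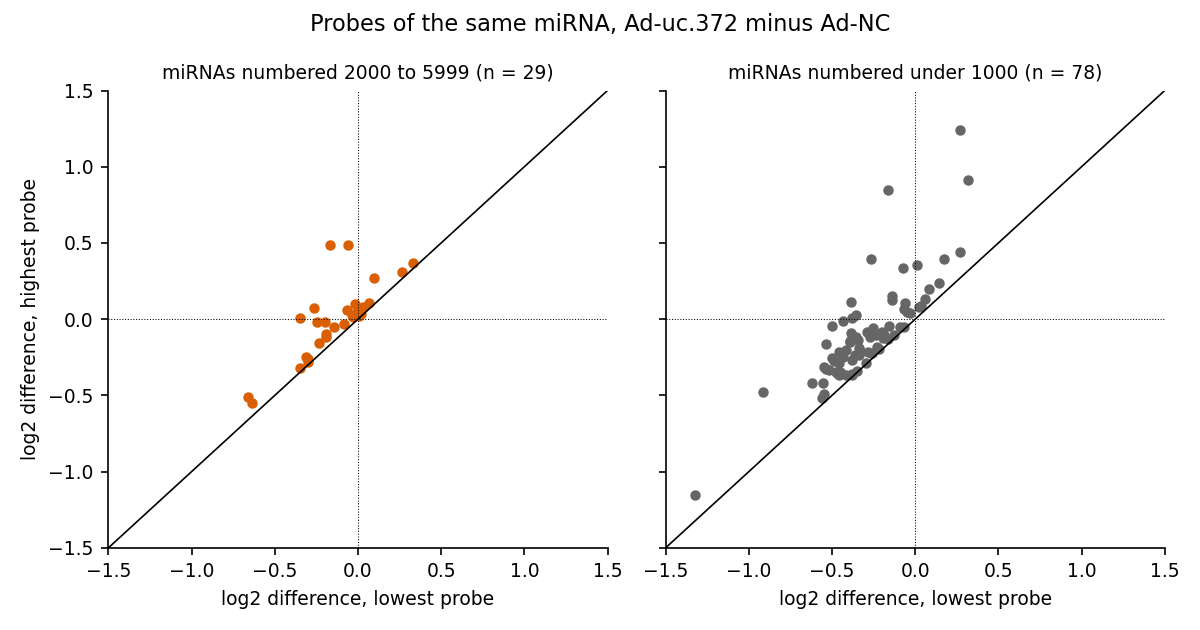
Lowest against highest log2 difference (Ad-uc.372 minus Ad-NC) among the probes of each miRNA with several measured probes, for 29 miRNAs numbered in the 2000s to 5000s (left) and 78 numbered under 1000 (right). Points on the line have equal probes. At left, miR-4284 and miR-5100 stand above the line by more than 0.5.

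**Figure D5:**
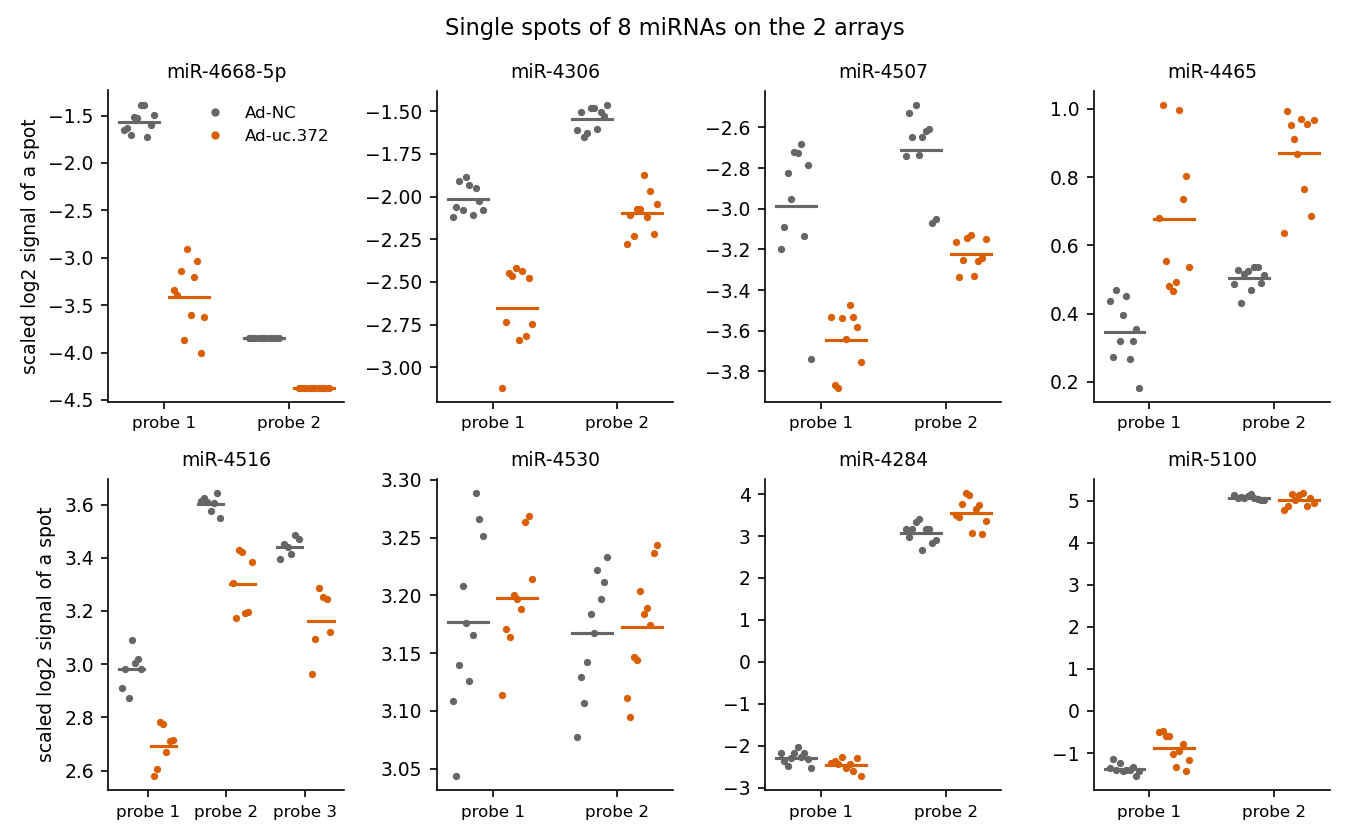
Scaled log2 signal of every spot of 8 miRNAs with Ad-NC (grey) and Ad-uc.372 (orange), by probe, with bars at the means. The vertical axes differ between panels. The spots of miR-4668-5p stay apart on probe 1 and lie at the floor on both arrays on probe 2, those of miR-4516 stay apart on its 3 probes, those of miR-4530 overlap, and the probes of miR-4284 and miR-5100 differ from each other.

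The differences were also set against properties of the miRNAs. The number in the name and the detection flag entered the choice. Groups by number, brightness or count of measured probes are therefore not independent of it, whereas G+C share and arm were not used. By G+C share, the 19 measured miRNAs over 70% had a median of -0.15 with 15 lower and 4 higher, and the 14 between 50% and 70% had a median of 0.023 with 6 lower and 8 higher. The 2 under 50% were miR-4668-5p and miR-4306 themselves. Low-numbered miRNAs had medians of -0.17 (70 miRNAs under 50%), -0.27 (36) and -0.27 (6), so that the order among the high-numbered ones is not seen there. Ranked by brightness, the dimmest 15, the middle 13 and the brightest 15 of the 43 had medians of -0.085, -0.095 and -0.10, which hardly differ. miRNAs measured by 1 probe had a median of -0.19 (14 miRNAs), and those with 2 probes of -0.032 (28). Among low-numbered miRNAs both medians were -0.24 (47 and 75), so that this contrast is not seen there. By arm the medians were 0.035 for 3p (4 miRNAs), -0.25 for 5p (5) and -0.082 for names without an arm (34), where the named arms hold few miRNAs. Low-numbered miRNAs had -0.24 for 3p (53), -0.21 for 5p (58) and -0.27 without an arm (14). The 13 in the 3000s and the 27 in the 4000s had medians of -0.10 and -0.095.

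Several of the high-numbered miRNAs share a seed with another measured miRNA, and miRNAs of 1 seed can bind overlapping sets of messenger RNAs. The sequences of 3 such groups are shown, with bases 2 to 8 in capitals.
miR-4465: cUCAAGUAgucugaccagggga
miR-26a-5p: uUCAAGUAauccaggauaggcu
miR-26b-5p: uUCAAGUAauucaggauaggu
miR-3940-5p: gUGGGUUGgggcgggcucug
miR-4507: cUGGGUUGggcugggcuggg
miR-3652: cGGCUGGAggugugagga
miR-4430: aGGCUGGAgugagcggag
miR-4465 carries the seed of the miR-26 family, conserved miRNAs known as growth suppressors in liver cancer. Its difference was 0.35 ± 0.19, that of miR-26a-5p -0.27 ± 0.34 and that of miR-26b-5p 0.19 ± 0.47. The family members thus lay on both sides of 0, and with all probes in the 75th percentile, which moves each of them by 0.48, all 3 lay above it. miR-3940-5p, in the splicing factor gene KHSRP, had -0.25 ± 0.14 beside -0.58 ± 0.29 for miR-4507. miR-3652, in the chaperone gene HSP90B1, had 0.19 ± 0.24, and miR-4430 was below background. The seed GGCUGGG was shared by miR-4505 (-0.56) and miR-5787, measured with Ad-uc.372 only, and GGAGAGA by miR-4306 and miR-185-5p. In a further 3 groups the high-numbered miRNA was below background by the spot rule, namely miR-4728-5p beside miR-6785-5p (-0.0013), miR-5001-5p beside miR-762 (-0.27) and miR-4689 beside miR-6858-5p (0.11).

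Longer stretches in common matter for a microarray, since a probe may bind a second miRNA that holds the same bases. The longest run of identical bases with another detected miRNA had a median of 9 bases over the 58, and reached 12 or more in 4 of them. The pairs are shown with the shared run in capitals.
miR-4306: UGGAGAGAAAGGCAGUa
miR-185-5p: UGGAGAGAAAGGCAGUuccuga
miR-4291: UUCAGCAGGAACAGcu
miR-24-3p: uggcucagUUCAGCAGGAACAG
miR-4505: aGGCUGGGCUGGGacgga
miR-4507: cuggguugGGCUGGGCUGGG
miR-4306 shares 16 of its 17 bases with miR-185-5p, a conserved miRNA known to act on lipid genes, and the run starts at the first base of both. miR-185-5p had a difference of -0.24 ± 0.30, against -0.59 ± 0.20 for miR-4306. miR-4291 shares 14 of its 16 bases with the 3′ end of miR-24-3p, whose difference was -0.41 ± 0.16. miR-4505 and miR-4507 share 12 bases and had -0.56 and -0.58. In the next pairs, with 11 bases in common, miR-3679-5p had -0.085 beside 0.33 for miR-6780b-5p, and miR-4298 had -0.031 beside miR-7847-3p, not measured on both arrays. Binding of a probe to the partner was not tested.

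Where a miRNA was measured on 1 array only, a bound alone can be given, taken from the brighter probe against its own dim level or the dim array's lowest measured level, whichever is higher. This bound reached 1.5-fold for 4 of the 8 miRNAs so measured, where the share over all 38 such miRNAs was 18.4 percent. It did so for each of the 7 miRNAs on the array measured with Ad-NC only, these 4 among them, and for none of the 31 measured with Ad-uc.372 only. The scaled floor was -3.85 on the Ad-NC array and -4.37 on the Ad-uc.372 array, 0.52 apart in the direction of the Ad-NC bounds, and with 1 detection limit for both arrays 2 of the 70 miRNAs had a bound of 1.5-fold in place of 4. With the bounds, 6 of the 51 miRNAs measured on 1 or both arrays passed 1.5-fold (11.8%), against 5.99 percent of all 267. miR-3151-3p was at least 2.80-fold lower with Ad-uc.372, with probe signals of 43.4 ± 7.95 and 30.6 ± 5.42 against 1.60 ± 2.83 and 0.141 ± 1.81. miR-4455 was at least 2.59-fold lower, with 39.7 ± 3.27 and 37.5 ± 6.66 against 14.6 ± 3.82 and 13.4 ± 3.89. On both miRNAs the spots of the arrays do not overlap. These 2 were the only ones of the 4 past 2-fold.

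The other 2 are the arms of a single hairpin, miR-4701, in the adenylyl cyclase gene ADCY6. The 5p arm was at least 1.88-fold lower, with a brighter probe at 29.5 ± 7.97 against 5.27 ± 3.06, and the 3p arm at least 1.71-fold lower, with 25.1 ± 7.03 and 24.4 ± 6.54 against 6.93 ± 2.36 and 7.49 ± 5.39. The other 5p probe was below background on both arrays, at 8.20 ± 2.28 with Ad-NC and 2.80 ± 2.95 with Ad-uc.372. By the spot rule both arms were thus measured with Ad-NC only, at signals close to that array's limit of 21.1. In the other 2 hairpins with both arms among the 70 this was not so. For miR-3162, in the oxysterol binding protein gene OSBP, the 5p arm was at 52.6 ± 8.85 and 48.2 ± 5.06 against 66.8 ± 15.0 and 69.0 ± 13.5, and the 3p arm, at 18.7 ± 3.43 and 13.8 ± 4.0 against 5.36 ± 3.62 and 7.44 ± 2.44, was below background by the spot rule on both arrays. No direction can be read for that arm. For miR-3679, in the glycosyltransferase gene MGAT5, the 5p arm had a difference of -0.085 and the 3p arm was below background.

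Of the 4 miRNAs measured with Ad-uc.372 only, none had a bound of 1.5-fold. miR-4261, in the ribonucleotide reductase gene RRM2, was at least 1.06-fold higher, with a brighter probe at 12.2 ± 5.04 with Ad-NC and 28.1 ± 6.48 with Ad-uc.372. For miR-4291, miR-4749-3p and miR-5787 the bound was under 1, so that no fold is given. Their brighter probes were at 17.4, 17.2 and 12.9 with Ad-NC and 19.3, 16.4 and 18.4 with Ad-uc.372. These 3 lay near the limits of both arrays, and the limit of the Ad-uc.372 array was the lower.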

How the data were processed

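The authors hybridised Cy3-labelled RNA of 1 Ad-NC and 1 Ad-uc.372 culture and read the image with Agilent Feature Extraction (version 10.10 per the submitters' processing notes, 11.5.1.1 per the file headers). The deposited intensities are background-subtracted spot signals without normalization between arrays. The authors also deposited log2 values per miRNA, which equal log2 of the total signal minus a constant of 1.39 (Ad-NC) and 1.71 (Ad-uc.372) within 0.001 for 2546 and 2542 of 2549 miRNAs and hold undetected miRNAs at -4.71 and -5.04. The medians of the columns have the same values. From the intensities, 50980 spots per array that were not controls were floored, set to log2, averaged and scaled as given in the report. The slide could not be fitted as a block, since both arrays share it. The members, lists and groups were chosen with earlier results of these data known. Named were the 8 largest differences in each direction, the 5 brightest, the 3 largest bounds in each direction, every miRNA past 1.5-fold, both arms of miR-4668, hairpins with both arms, shared seeds, and the miRNAs nearest the detection threshold. Those with other shared runs, with spots that stay apart and with a probe gap over 0.5 were named after their values were seen. Alternatives covered the signal, background correction, scaling, filter, outliers and averaging. The steps were tested on simulated data. Sequences and overlapping genes came from RefSeq on GRCh38.p14, while the array grid is annotated on another build. Python 3.11.15, numpy 2.4.6, pandas 2.3.3, matplotlib 3.10.9, and R 4.3.3 with limma 3.58.1 (normexp) were used.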

Additional observations from a re-analysis of the deposited data

How the results depend on the processing

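No paired analysis was possible because there was a single array for either vector, and hence no replicate could be left out. The slide as a block was not run. Beside 15 alternatives, 2 more were chosen once the data had been seen. The count of miRNAs numbered in the 2000s to 5000s past 1.5-fold, bounds included, was 6 and became 2 with normexp, 11 with the 75th percentile over all probes, 3 at 2-fold, 20 with the authors' deposited log2 values and 25 with the software's total signal per miRNA. It became 3 with 1 detection limit for both arrays and 26 with the deposited values holding undetected miRNAs at their fixed low value, the 2 added alternatives. Bounds made up 15 of the 20 and 21 of the 25. Among those of the 70 with a value on both arrays, higher against lower past 1.5-fold was 0 against 2, 8 against 1 with the 75th percentile over all probes, 2 against 2 with the total signal and 0 against 5 with the deposited values. With the fixed low value it was 12 against 14 over all 70, of which 12 against 9 were miRNAs detected on 1 array only. In those values 89 of all 336 detected miRNAs passed 1.5-fold (26.5%). Over all miRNAs with a value on both arrays, bounds left out, 9 of 229 passed 1.5-fold under the main setting. This became 37 of 229 with the 75th percentile over all probes, 30 of 279 with the total signal and 32 of 279 with the deposited values. With normexp it was 3 of 229, and 3 of 229 passed 2-fold. Counts over the whole array thus also moved with the setting. The count of miRNAs with spots that stay apart on the lower side, recomputed under 3 scalings after the data had been seen, was 7 and became 3 with the median over measured probes, 1 without scaling and 1 with all probes in the 75th percentile. Over all 229 miRNAs measured on both arrays the counts were 29, 16, 7 and 2. The median difference of -0.095 became 0.13 without scaling, 0.39 when all probes entered the 75th percentile and -0.32 without a filter on dim probes. These moved the median of all miRNAs by 0.23, 0.48 and -0.35. The number of miRNAs whose probes have the same sign was 20 of 29, and 58 of 70 without the filter. There a probe at the floor on both arrays has a difference of -0.52, so that its sign is fixed by the limits of the arrays. Of 596 values of single miRNAs under the alternatives, 464 moved by less than the spot SD and 132 by more. A change of direction was looked for only in miR-4668-5p and miR-4306, the 2 past 1.5-fold, and neither changed. Smaller differences did change sign, such as that of miR-4516, which ranged from -0.39 to 0.19. Signal over background limits the 8 miRNAs measured on 1 array and the 19 measured on neither.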

Other observations

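In the authors' deposited log2 values, each of the 21 miRNAs numbered in the 2000s to 5000s that were detected on 1 array only differs between the arrays by 3.63 to 7.04 in size, 12 higher and 9 lower with Ad-uc.372, since the undetected array holds the fixed low value. Of the 49 detected on both arrays 5 passed 1.5-fold in these values, with a median of -0.19, 41 lower and 8 higher. Over all 279 miRNAs detected on both arrays 32 passed 1.5-fold in the same values, with a median of -0.26. The median of those numbered under 1000 was -0.31. A median below 0 in these values is thus not particular to the miRNAs numbered in the 2000s to 5000s. miR-4787-5p, miR-5001-5p and miR-4731-3p were detected by the software on both arrays and were below background by the spot rule.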
